A study of Mus musculus with 4 samples.

Results

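The MYC, MAX and MXD network is a set of transcription factors that share 1 binding partner, MAX. The members were the 10 genes Myc, Mycl, Mycn, Max, Mxd1, Mxd3, Mxd4, Mxi1, Mnt and Mga, each matched by symbol to 1 identifier, out of 48432 identifiers in the table. RNA was measured in D2.OR cells, a mouse mammary line labelled as pre-malignant hyperplastic alveolar cells, after 7 days in 3D culture with Cultrex, a basement membrane extract. The groups were parental cells (2 libraries) and cells labelled BORG-expressing (2 libraries), BORG being a long non-coding RNA, and all 4 libraries share the line, the medium and the culture time. The deposited table names the parental condition Empty, and whether those cells carried an empty vector, or how many clones either group came from, is not given in the sources used here. The level of BORG itself was not analysed here, so the labels were not checked against it.

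MYC, MYCL and MYCN activate genes when paired with MAX, by binding the E-box CACGTG and related sequences near promoters. The MXD proteins, MXI1 and MNT pair with the same partner, bind the same sites and recruit SIN3 and histone deacetylases, so that they act as antagonists of MYC. MGA also pairs with MAX and belongs to a repressive Polycomb complex. Among the best known targets of MYC are the genes for making ribosomes, and in the mammary gland MYC is known as a driver of epithelial proliferation and as a frequent oncogene.

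Fragments assigned to genes ran from 7900767 (BORG-expressing replicate 1) to 30322679 (parental replicate 2). The first principal component of log2 CPM held 74.4% of the variance. The edgeR test called 6220 of 15116 genes (41.1%) at an adjusted p under 0.05, 19.9% higher and 21.3% lower in BORG-expressing cells, so a share of calls near these values says little about a list. The summed level of 8 mammary epithelial marker genes was 2500 to 2617 CPM in all 4 libraries, but its genes differed between the groups in both directions. Mean CPM went from 306 in parental to 782 in BORG-expressing libraries for Krt14, from 742 to 899 for Krt8, from 5.07 to 11.2 for Cdh1, and from 1472 to 912 for Krt18. Epcam was at 1.52 to 2.95 CPM and Krt5 at 0 to 0.126 CPM. Of the fibroblast markers, Pdgfra lay at 482 to 763 CPM and Col1a1 at 115 to 181 CPM, and Lum was at 0 to 0.0729 CPM. Their directions differed. Mean CPM went from 728 in parental to 529 in BORG-expressing libraries for Pdgfra and from 31.5 to 18.4 for Pdgfrb. For Col1a1 it went from 129 to 151, for Dcn from 0.146 to 0.425 and for Col1a2 from 0.354 to 0.272. The summed fibroblast markers (6 genes) were at 868 and 910 CPM in parental and 714 and 683 CPM in BORG-expressing libraries. The summed immune markers (7 genes) were at 8.62 and 9.44 against 12.4 and 13.8 CPM, of which Cd68 made up a mean of 7.16 against 11.8 CPM, while Ptprc, the pan-leukocyte marker, went from 1.31 to 0.172 CPM. The endothelial markers (4 genes) were at 9.33 and 10.6 against 3.54 and 3.21 CPM, and the adipocyte markers (3 genes, Lep at 0) at 0 to 0.294 CPM. Of the endothelial markers, Kdr went from a mean of 6.95 to 1.53 CPM, Cdh5 from 2.73 to 1.15 and Tek from 0.132 to 0. Pecam1 went the other way, from 0.153 to 0.690 CPM. The part of these markers in the results below was not tested, and in bulk RNA fewer cells of a type and less RNA per cell cannot be told apart.

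In BORG-expressing cells Myc fell about 5-fold while Mycl and 3 of the MYC antagonists, Mxd4, Mxi1 and Mxd1, rose. Of the 10 members, 9 had enough fragments to be tested and 7 passed, 4 of them higher and 3 lower, against a background of 41.1% for either direction. Mycn was hardly detected and was not tested. Levels are given as CPM, fragment counts scaled to library size with TMM factors, where a member is followed across libraries, and as FPKM, which also divides by transcript length, where members are compared with each other. The CPM of the groups did not overlap for 8 of the 9 tested members, 5 higher and 3 lower, against 72.6% of all genes tested (36.6% higher and 36% lower). A call with a difference of at least 2-fold was made for 4 members, against 19.6% of all genes tested. The members were chosen with earlier results of these data known, so nothing particular to the network is claimed from these counts.

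**Figure D1:**
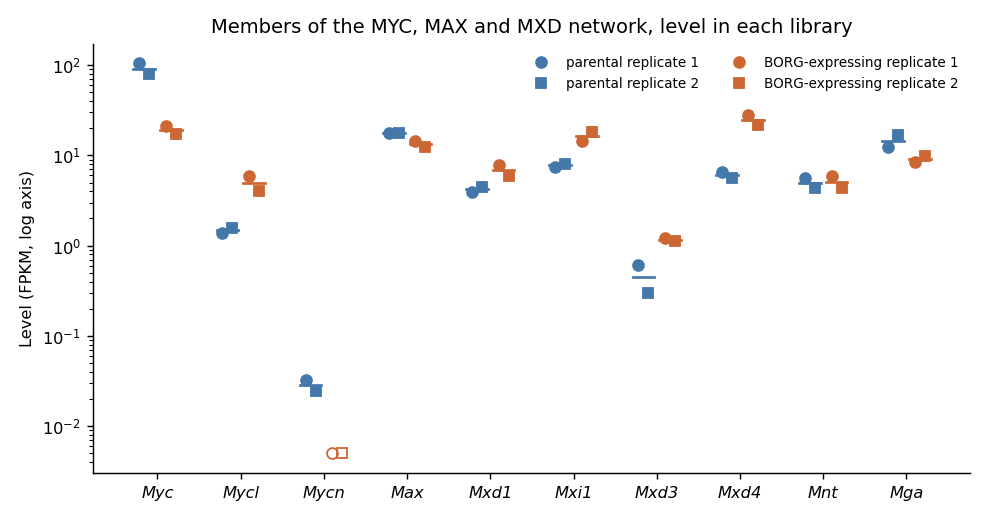
Level of each of the 10 network members in each library, in FPKM on a log axis; blue points are parental and orange points BORG-expressing libraries, short lines are group means (n = 2), and open symbols at the bottom mark a value of 0. Myc drops from 79.1 to 104 FPKM to 17.1 to 21.0 FPKM, whereas Mycl, Mxd1, Mxi1 and Mxd4 are higher in both BORG-expressing libraries.

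Myc, which encodes the founding activator of the network, lies on chromosome 15 at 61985391 to 61990374 (GRCm38, plus strand). Its CPM was 267 and 219 in the parental libraries and 41.9 and 51.6 in the BORG-expressing libraries. Both BORG-expressing values lay far below both parental values. Myc fell by 2.37 ± 0.16 on the log2 scale (SE), 5.16-fold, with an edgeR adjusted p of 2.06e-04. Of all tested genes, 314 passed with a fall at least as large. The call held under each of the 14 alternatives that could be run for Myc, with log2 fold changes between -2.53 and -2.20.

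Mycl encodes L-MYC, the paralog best known from small cell lung cancer, and moved the other way. It lies on chromosome 4 at 122995652 to 123002485. Its CPM was 5.25 and 6.17 in the parental libraries and 18.6 and 18.3 in the BORG-expressing libraries, with no overlap. The rise was 1.69 ± 0.17 on the log2 scale (SE), 3.22-fold, with an edgeR adjusted p of 8.15e-04. Despite this rise Mycl stayed below Myc in every library. The ratio of Myc to Mycl in FPKM was 74.8 and 50.9 in the parental libraries and 3.53 and 4.25 in the BORG-expressing libraries. Mycl made up 1.32% and 1.93% of the summed FPKM of the 3 MYC genes in parental cells and 22.1% and 19.1% in BORG-expressing cells. It gained share, yet the sum of the 3 still went from 106 and 80.7 FPKM to 26.9 and 21.1 FPKM.

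Mycn encodes N-MYC, a paralog used mostly in embryonic and neural tissue. It had 2 fragments in each parental library and 0 in each BORG-expressing library. A count of 0 over the BORG-expressing libraries allows up to 3 fragments, or 0.0856 CPM without TMM scaling, which is above the parental 0.0734 CPM on the same scale. A difference in Mycn was therefore not detectable at this depth, and the limit covers counting error only.

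Max, the shared partner, lies on chromosome 12 at 76937269 to 76962201 on the minus strand. Its CPM was 37.0 and 37.6 in the parental libraries and 28.3 and 28.1 in the BORG-expressing libraries. The libraries of a group were nearly equal and the groups did not overlap. The fall was small, 0.40 ± 0.12 on the log2 scale (SE), 1.32-fold, with an edgeR adjusted p of 0.0328. That call is not stable: it was lost in 9 of 14 alternatives, among them each left-out library (parental replicate 1, adjusted p = 0.119; parental replicate 2, 0.195; BORG-expressing replicate 1, 0.0714; BORG-expressing replicate 2, 0.0867).

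Mxd4 encodes MAD4, an antagonist of MYC that is typically made in differentiating or resting cells. The gene lies on chromosome 5 at 34173883 to 34187720 on the minus strand. Its CPM was 29.9 and 25.6 in the parental libraries and 105 and 112 in the BORG-expressing libraries. Even the lower BORG-expressing value was above 3 times the higher parental value. Mxd4 rose by 1.97 ± 0.13 on the log2 scale (SE), 3.92-fold, with an edgeR adjusted p of 1.72e-04, the largest rise among the tested members that passed. In FPKM it was the fifth member in parental cells and the first in BORG-expressing cells.

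Mxi1, the antagonist also known as MAD2, lies on chromosome 19 at 53310518 to 53375810. Its CPM was 41.3 and 39.5 in the parental libraries and 86.1 and 94.5 in the BORG-expressing libraries. Both values after BORG were above 2 times either parental value. The rise was 1.16 ± 0.11 on the log2 scale (SE), 2.24-fold, with an edgeR adjusted p of 5.93e-04. Mxd4 and Mxi1 kept their calls in all 14 alternatives run for each, with log2 fold changes from 1.85 to 2.04 and from 0.97 to 1.22.

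Mxd1 encodes MAD1, the first of the antagonists to be described, and lies on chromosome 6 at 86647042 to 86669161, overlapped on the same strand by Gm44292, which had 34 to 83 fragments. Its CPM was 21.1 and 22.9 in the parental libraries and 37.8 and 33.0 in the BORG-expressing libraries. The groups did not overlap, and the rise of 0.68 ± 0.14 on the log2 scale (SE) was 1.6-fold (edgeR adjusted p = 0.00950). The call was lost without parental replicate 1 (adjusted p = 0.0650) and in both limma fits to FPKM.

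Mxd3, an antagonist known for its expression in dividing cells, had 22 and 14 fragments in the parental libraries and 10 and 56 in the BORG-expressing libraries. Its CPM was 0.925 and 0.462 against 1.26 and 2.04, low in all 4 libraries, with the BORG-expressing values above the parental ones. The difference of 1.31 ± 0.54 on the log2 scale did not pass (edgeR adjusted p = 0.0980). The gene overlaps Prelid1 on the opposite strand, which had 915 to 3838 fragments, and reads from the 2 strands may not have been separated.

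Mnt, the most widely expressed antagonist, did not pass. Its CPM was 30.5 and 26.3 in the parental libraries and 21.1 and 30.02 in the BORG-expressing libraries, with overlap between the groups. The difference was -0.13 ± 0.19 on the log2 scale (edgeR adjusted p = 0.627), and it ran from -0.43 to 0.07 over the alternatives.

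Mga, a very large protein with both an E-box-binding and a T-box domain, lies on chromosome 2 at 119897228 to 119969581. Its CPM was 192 and 232 in the parental libraries and 169 and 133 in the BORG-expressing libraries. The groups did not overlap, but the gap between them was smaller than the spread within either group. The fall was 0.49 ± 0.16 on the log2 scale (SE), with an edgeR adjusted p of 0.0455. It lost its call in 9 of 14 alternatives, including the fits that leave out parental replicate 2 (-0.37, adjusted p = 0.194) or BORG-expressing replicate 2 (-0.33, adjusted p = 0.125).

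**Figure D2:**
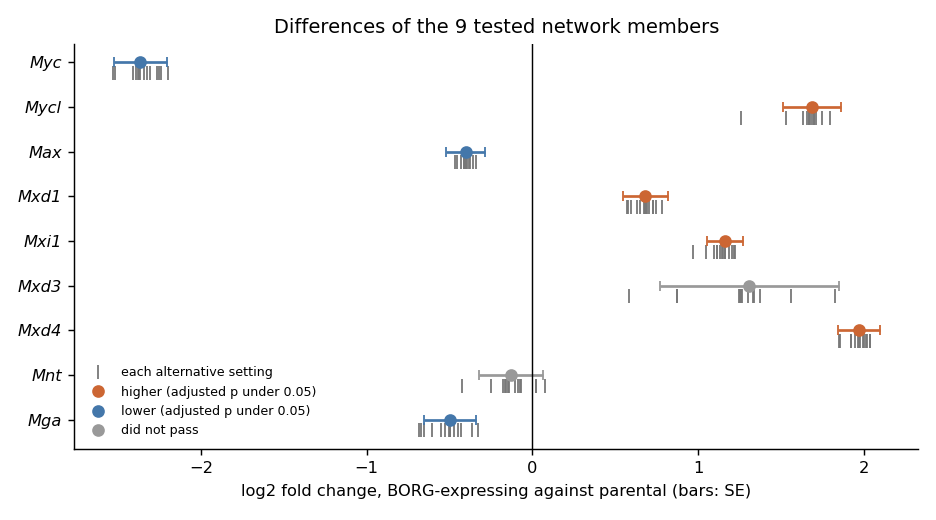
Log2 fold change of the 9 tested members, BORG-expressing against parental; points are edgeR estimates with bars of 1 SE, orange and blue mark members past an adjusted p of 0.05, grey marks those that did not pass, and ticks show the value under each alternative setting. Myc, Mycl, Mxd4 and Mxi1 lie far from 0 under every setting drawn, while the ticks of Mnt fall on both sides of 0.

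Within a library the balance of the network can be read without any scaling between libraries. FPKM of Myc was divided by the summed FPKM of the antagonists Mxd1, Mxd3, Mxd4, Mxi1 and Mnt. That ratio was 4.30 and 3.49 in the parental libraries and 0.367 and 0.336 in the BORG-expressing libraries. Messenger RNA of Myc thus exceeded that of its antagonists in both parental libraries and was below it in both BORG-expressing libraries. The log2 ratio differed by -3.46, an 11.0-fold change, with a two-sided exact permutation p of 0.333, the smallest that 2 against 2 libraries can give.

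The same ratios were taken against the shared partner, as values with no call. The summed antagonists had 1.38 and 1.28 times the FPKM of Max in the parental libraries and 3.99 and 4.09 times in the BORG-expressing libraries. The 3 MYC genes together had 6.03 and 4.55 times the FPKM of Max in parental and 1.88 and 1.698 times in BORG-expressing libraries. Mxd4 went from 27.0% and 24.5% of the summed FPKM of the antagonists in parental libraries to 48.6% and 42.2% in BORG-expressing libraries. Mnt went from 23.1% and 19.3% of that sum to 10.2% and 8.55%. These are messenger RNA ratios, and protein was not measured.

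**Figure D3:**
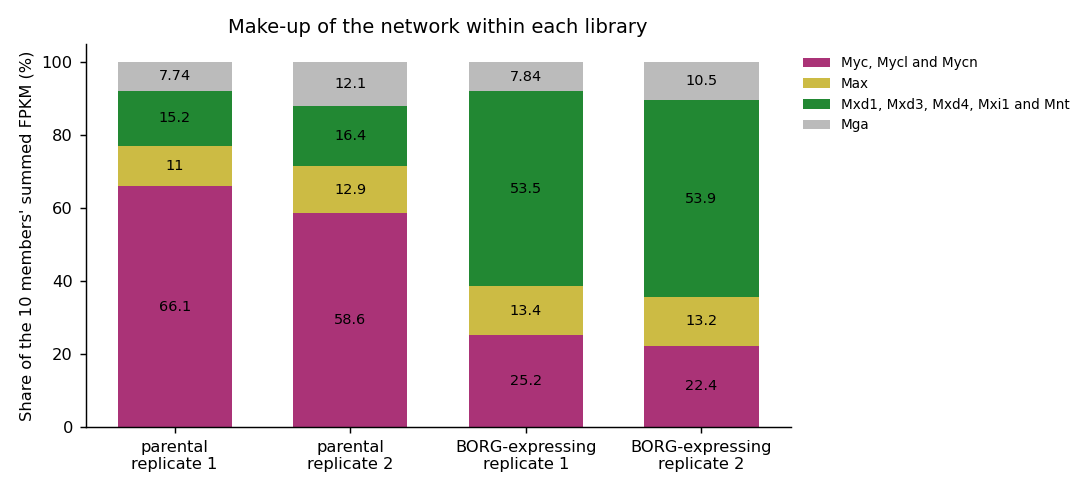
Share of the 10 members' summed FPKM, in percent, held by the MYC genes, Max, the antagonists and Mga in each of the 4 libraries. The antagonists go from 15.2% and 16.4% in parental to 53.5% and 53.9% in BORG-expressing libraries, the MYC genes from 66.1% and 58.6% to 25.2% and 22.4%.

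The order of levels also turned over. In parental cells, by mean FPKM, it ran Myc (91.6 ± 17.8, SD, n = 2), Max (17.6 ± 0.143), Mga (14.5 ± 3.02), Mxi1 (7.74 ± 0.300), Mxd4 (6.05 ± 0.703), Mnt (4.99 ± 0.869), Mxd1 (4.22 ± 0.351), Mycl (1.47 ± 0.115), Mxd3 (0.453 ± 0.214) and Mycn (0.0287 ± 0.00558). Among neighbours in that order the libraries of Mxd4 and Mnt, and those of Mnt and Mxd1, overlapped. In BORG-expressing cells the order was Mxd4 (24.6 ± 4.48), Myc (19.0 ± 2.73), Mxi1 (16.2 ± 2.50), Max (13.4 ± 1.33), Mga (9.12 ± 1.06), Mxd1 (6.93 ± 1.35), Mnt (5.10 ± 1.05), Mycl (4.99 ± 1.35), Mxd3 (1.16 ± 0.0561) and Mycn (0). There the libraries of Myc and Mxi1, and those of Mnt and Mycl, overlapped.

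The promoter windows of 3 members hold the E-box CACGTG and are shown to place it; of these, Mxd4 rose, Max had a fall that most alternatives did not call, and Mnt did not pass. The windows come from RefSeq (GRCm38.p6), run from 250 bases before to 50 bases after the start site, and are written 5′ to 3′ on the gene's own strand. Of the 10 members 9 have a window there, and Myc has none. CACGTG, which reads the same on both strands and is in capitals, occurs once each in the windows of Mxd4 (higher), Max (lower) and Mnt (did not pass), and in none of the windows of the other 6 members.
Mxd4, chr5:34187661-34187960, minus strand: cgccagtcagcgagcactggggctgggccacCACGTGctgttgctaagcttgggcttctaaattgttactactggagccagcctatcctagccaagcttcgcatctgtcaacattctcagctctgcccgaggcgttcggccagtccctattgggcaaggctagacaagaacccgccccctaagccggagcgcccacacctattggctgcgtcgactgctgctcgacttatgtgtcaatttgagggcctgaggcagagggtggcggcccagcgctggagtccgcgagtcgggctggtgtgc
Max, chr12:76962199-76962498, minus strand: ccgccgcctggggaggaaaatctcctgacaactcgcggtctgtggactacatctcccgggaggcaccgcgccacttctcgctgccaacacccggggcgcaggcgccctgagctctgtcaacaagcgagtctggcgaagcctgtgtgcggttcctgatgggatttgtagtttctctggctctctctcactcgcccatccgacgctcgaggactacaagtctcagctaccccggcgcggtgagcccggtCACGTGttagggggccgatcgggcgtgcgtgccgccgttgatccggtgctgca
Mnt, chr11:74830674-74830973, plus strand: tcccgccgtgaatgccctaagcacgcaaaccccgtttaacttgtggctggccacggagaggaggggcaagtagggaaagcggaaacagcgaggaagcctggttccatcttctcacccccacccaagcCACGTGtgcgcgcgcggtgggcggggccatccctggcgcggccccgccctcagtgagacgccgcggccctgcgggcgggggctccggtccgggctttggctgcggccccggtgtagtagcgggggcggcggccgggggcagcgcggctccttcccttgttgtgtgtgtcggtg
Relative to the start site, the E-box begins at -219 in Mxd4, -3 in Max and -123 in Mnt. A match is a description of the letters in this window and not a shown binding site.

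The MLX branch, in which MLX takes the place of MAX and pairs with the glucose-sensing factors MLXIP and MLXIPL, showed no change that passed. Mlx was at 28.9 and 30.2 CPM in parental and 29.3 and 27.3 CPM in BORG-expressing libraries (-0.07 ± 0.12, edgeR adjusted p = 0.699). Mlxip was at 61.9 and 59.6 against 49.2 and 68.1 CPM (-0.04 ± 0.16, adjusted p = 0.872). For both genes the groups overlapped. Mlxipl had 2 fragments in each parental library and 0 in the others and was not tested.

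Genes known as targets of MYC in ribosome biogenesis fell almost as a body. Of 35 such genes tested, 33 fell, 0 rose and 2 did not pass, with a median log2 fold change of -1.78, against 21.3% of all genes lower and a median of 0.02. With each library left out in turn 33 of the list were called, and 31 in the limma fits to FPKM. A call with a fall of at least 2-fold was made for 29 of the 35 genes, against 19.6% of all genes tested in either direction. The list was chosen with earlier results of these data known, and nothing particular to it is claimed from its count.

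Nop56, a core protein of the small nucleolar RNA particles that methylate ribosomal RNA, had the lowest log2 fold change of the list in edgeR, level with Rrp12 (-2.56 ± 0.12) within their SE. By mean FPKM the fall of Nop56 was 5.06-fold and was not the largest of the list. Larger falls were seen, among others, for Nop58 (7.64-fold), Wdr43 (6.32-fold), Wdr12 (5.71-fold), Tcof1 (5.39-fold) and Rrp12 (5.30-fold). The CPM of Nop56 was 224 and 241 in the parental libraries and 36.1 and 42.3 in the BORG-expressing libraries (fell by 2.56 ± 0.13 on the log2 scale, edgeR adjusted p = 9.2e-05). Bysl, needed for the small ribosomal subunit, went from 637 and 622 CPM to 172 and 181 CPM (fell by 1.83 ± 0.10, adjusted p = 1.08e-04). Both genes were clearly apart between the groups. Npm1, the nucleolar protein nucleophosmin and the most abundant member per length, did not follow, with 408 and 509 against 477 and 352 CPM (-0.15 ± 0.18, adjusted p = 0.545). Las1l, an endonuclease partner in ribosomal RNA processing, was the other that did not pass (0.13 ± 0.11, adjusted p = 0.417).

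Polr1a, the largest subunit of RNA polymerase I, was at 198 and 205 CPM in parental and 52.8 and 53.3 CPM in BORG-expressing libraries (fell by 1.92 ± 0.10, edgeR adjusted p = 1.11e-04). Ubtf, which opens ribosomal RNA gene promoters, was at 244 and 247 against 97.0 and 97.2 CPM. Tcof1, a nucleolar cofactor of polymerase I, was at 94.1 and 78.3 against 12.5 and 17.1 CPM. The groups did not overlap for any of these 3 genes, which were chosen after their values were seen, as was Las1l. Nop56, Ncl, Nop58 and Wdr43 host small nucleolar RNA genes on the same strand, and their values may include reads of those RNAs.

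**Figure D4:**
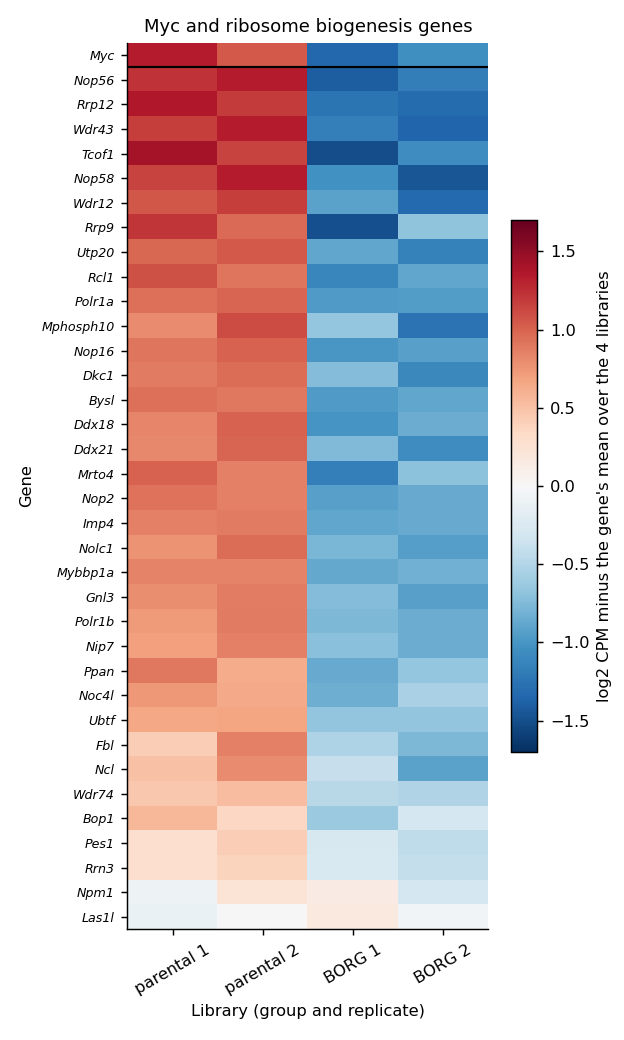
Log2 CPM of Myc (top row) and the 35 ribosome biogenesis genes in each library, minus the gene's mean over the 4 libraries, ordered by log2 fold change. Red is above and blue below the gene's mean; all but Npm1 and Las1l, the bottom rows, are red in both parental and blue in both BORG-expressing libraries.

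Metabolic and growth targets of MYC mostly fell too. Of 39 tested, 29 fell, 4 rose and 6 did not pass, with a median of -1.11. Over all genes tested 21.3% were lower and 19.9% higher, with a median of 0.02. This list too was chosen with earlier results of these data known. Shmt2, the mitochondrial serine hydroxymethyltransferase, was at 469 and 458 CPM in parental and 34.3 and 37.2 CPM in BORG-expressing libraries, the lowest fold of the list (fell by 3.69 ± 0.11, edgeR adjusted p = 6.2e-05). Odc1, the ornithine decarboxylase that begins polyamine synthesis and was chosen after its values were seen, was at 402 and 473 against 44.4 and 38.4 CPM (fell by 3.41 ± 0.14, adjusted p = 7.2e-05). Both are among the 5 genes of this list that fell at least as far as Myc.

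Genes of glucose use in that list did not move as 1 group. Hk2, hexokinase 2, fell by 0.72 ± 0.10 (edgeR adjusted p = 0.00257), from 159 and 168 to 97.5 and 100.2 CPM, and the glucose transporter gene Slc2a1 fell by 0.82 ± 0.13 (adjusted p = 0.00423), both named after their values were seen. Pkm, pyruvate kinase and the most abundant member, was at 3811 and 3929 CPM in parental and 3965 and 4042 CPM in BORG-expressing libraries and did not pass (0.05 ± 0.08, edgeR adjusted p = 0.676). Ldha, lactate dehydrogenase A, rose by 0.47 ± 0.10 (adjusted p = 0.00993), from 832 and 912 CPM to 1232 and 1184 CPM; it was not called in the limma fits, without parental replicate 1 (adjusted p = 0.193) and without parental replicate 2 (0.0515). Tert, the telomerase subunit, rose by 1.97 ± 0.35 (adjusted p = 0.00620) from a very low level, 0.883 and 1.16 CPM against 3.54 and 4.45 CPM, and did not pass in either limma fit (0.0650 and 0.105). The amino acid transporter gene Slc7a5 was listed at 0 in all 4 libraries and gives no value.

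Cell cycle targets of MYC were mixed. Of 20 tested, 9 fell, 2 rose and 9 did not pass, with a median of -0.45. Those called made up 55.0% of the list, against 41.1% of all genes tested (19.9% higher and 21.3% lower). E2f2, a transcription factor of S phase entry, had the largest fall (1.55 ± 0.15, edgeR adjusted p = 6.8e-04), from 22.0 and 23.3 CPM to 7.70 and 7.76 CPM. Id2, an inhibitor of differentiation factors, had the largest rise (1.25 ± 0.14, adjusted p = 0.00127), from 25.0 and 19.97 to 52.8 and 53.8 CPM. Ccnd1, cyclin D1, fell by 0.80 ± 0.09 (adjusted p = 0.00104), and its partner kinase gene Cdk4 did not pass (-0.27 ± 0.11, adjusted p = 0.0900).

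Genes known to be repressed by MYC went both ways. Of 18 tested, 5 rose, 7 fell and 6 did not pass, with a median of -0.04. Calls covered 66.7% of the list, against 41.1% of all genes tested (19.9% higher and 21.3% lower). Ndrg2, a growth-restraining gene, rose by 1.77 ± 0.30 (edgeR adjusted p = 0.00521), from 1.39 and 1.75 to 5.81 and 5.03 CPM. Vim, vimentin, rose by 0.73 ± 0.10 but did not pass in limma (adjusted p of 0.155 and 0.141). Gadd45a, a growth arrest gene, had the largest fall (3.05 ± 0.14, adjusted p = 8.2e-05), from 118 and 99.1 to 13.4 and 12.9 CPM. Itgb1, the integrin beta 1 gene, did not pass (0.03 ± 0.13, adjusted p = 0.868).

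**Figure D5:**
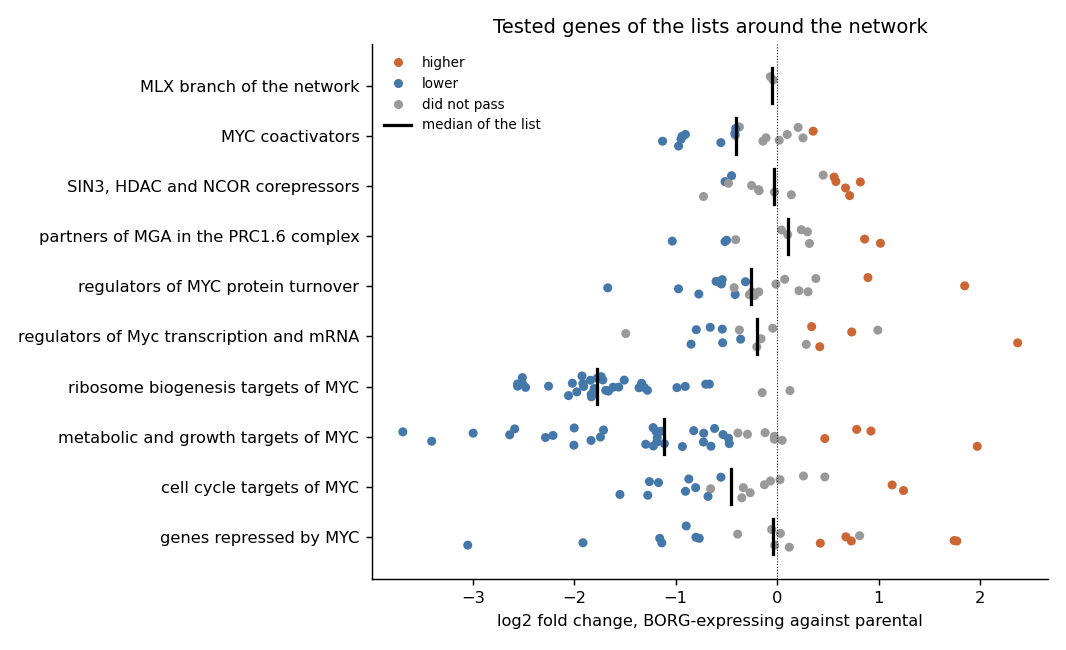
Log2 fold change of each tested gene in the 10 lists around the network, BORG-expressing against parental; each point is a gene, orange and blue mark genes past an adjusted p of 0.05, grey those that did not pass, and the bar is the list's median. The ribosome biogenesis list has its median at -1.78 and the metabolic list at -1.11, the repressed genes at -0.04.

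CACGTG occurs in 8.09% of 27025 genes with a RefSeq window and in 11.9% of the 9791 of them that were tested. Among listed genes with a window, it occurs in 7 of 30 for ribosome biogenesis (23.3%) and 12 of 34 metabolic genes (35.3%). Other lists had similar shares, with 5 of 15 cell cycle genes (33.3%, 3 of them lower) and 4 of 15 for Myc transcription and messenger RNA (26.7%, 1 lower). The MLX branch had it in 2 of 3 genes, and the remaining lists in 8.33% to 13.3%. All 7 ribosome biogenesis genes with the motif fell, and of the 12 metabolic genes with it, 9 fell and 2 rose. In the whole lists, with or without the motif, 33 of 35 tested ribosome biogenesis genes and 29 of 39 tested metabolic genes fell. The whole lists include the genes with the motif and some genes without a window. Whether the motif bears on a fall was not tested. Over all tested genes with a window, 29.0% of the 1164 with CACGTG fell and 18.0% rose, against 23.9% and 21.9% of the 8627 without it. These shares are descriptions with no test. The stretches below, chosen after the values were seen, show the motif in capitals with 10 bases on each side, for 4 targets that fell (Nop2, Imp4, Wdr43, Xpot) and 2 that rose (Ldha, Paics), on the gene's strand.
Nop2, a ribosomal RNA methyltransferase: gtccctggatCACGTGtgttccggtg
Imp4, of the small subunit processome: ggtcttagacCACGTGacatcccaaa
Wdr43, of the small subunit processome: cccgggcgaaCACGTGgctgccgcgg
Xpot, the transfer RNA exporter: ctccagggagCACGTGcgcggtcctc
Ldha, lactate dehydrogenase A: tgtcgcagcaCACGTGgagccactct
Paics, of purine synthesis: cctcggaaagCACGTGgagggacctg
The changes beside these sequences were -1.78 ± 0.11 for Nop2, -1.73 ± 0.11 for Imp4, -2.51 ± 0.13 for Wdr43 and -2.0 ± 0.11 for Xpot on the log2 scale, and 0.78 ± 0.13 for Paics. The core motif is the same in all 6, and the flanking bases differ. The window shown for Ldha holds 2 matches, and its stretch gives only the first.

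Coactivators that MYC recruits were lower more often than higher. Of 17 tested, 8 fell, 1 rose and 8 did not pass, with a median of -0.41. That is 52.9% called, against 41.1% of all genes tested (19.9% higher and 21.3% lower). Ruvbl1, an ATPase of the TIP60 and INO80 complexes, fell by 1.13 ± 0.14 (edgeR adjusted p = 0.00170), from 25.3 and 25.1 to 11.9 and 11.3 CPM. Actl6a, another subunit of these complexes, fell by 0.55 ± 0.10 (adjusted p = 0.00716), a call lost in both limma fits. Trrap, the scaffold that contacts MYC directly, rose by 0.36 ± 0.11 (adjusted p = 0.0437), but 7 of 14 alternatives did not call it, among them those without parental replicate 1 (0.231), parental replicate 2 (0.291) or BORG-expressing replicate 2 (0.177). Ccnt1, the cyclin of elongation factor P-TEFb, did not pass (0.10 ± 0.13, adjusted p = 0.591).

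Corepressors that the MXD proteins and MNT recruit were split. Of 15 tested SIN3, HDAC and NCOR genes, 5 rose, 2 fell and 8 did not pass, a share close to the background of 41.1%. Ing1, a SIN3 subunit that reads histone methylation, rose by 0.82 ± 0.11 (edgeR adjusted p = 0.00195), from 37.8 and 39.9 to 70.8 and 66.6 CPM. Sin3a, the scaffold itself, chosen after its values were seen, rose by 0.56 ± 0.10 (adjusted p = 0.00639), from 53.7 and 52.5 to 78.5 and 78.3 CPM. Sin3b, more abundant per length, did not pass (-0.18 ± 0.14, adjusted p = 0.324). Hdac2 and Rbbp7 had small falls, 0.51 ± 0.16 (adjusted p = 0.0400) and 0.45 ± 0.12 (0.0283), which did not pass without parental replicate 2 (0.0979 and 0.167) or BORG-expressing replicate 2 (0.120 and 0.0912).

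Partners of MGA in the Polycomb complex PRC1.6 were also split, with 2 of 11 higher, 3 lower and 6 that did not pass, and the share called, 45.5%, is near the background of 41.1%. Pcgf6, the subunit that defines this complex, fell by 1.03 ± 0.13 (edgeR adjusted p = 0.00151), from 34.5 and 34.6 to 17.0 and 16.7 CPM. The E2F partner gene Tfdp2 rose by 1.02 ± 0.19 (adjusted p = 0.00755), while its paralog Tfdp1 fell by 0.50 ± 0.11 (adjusted p = 0.0151), both calls lost in the limma fits and the second also without parental replicate 2 (0.125). Yaf2 did not pass (0.10 ± 0.13, adjusted p = 0.561).

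Of 20 genes that act on the stability of MYC protein, 2 rose, 8 fell and 10 did not pass. The background for these counts is 41.1% of all genes tested, 19.9% higher and 21.3% lower. Usp36, a nucleolar deubiquitinase that protects MYC, fell by 1.67 ± 0.13 (edgeR adjusted p = 3.07e-04), from 200 and 174 to 54.9 and 62.2 CPM. Set, an inhibitor of the phosphatase PP2A, fell by 0.97 ± 0.17 (adjusted p = 0.00618), from 213 and 270 to 140 and 108 CPM. Huwe1, a giant ubiquitin ligase, fell by 0.41 ± 0.09 (adjusted p = 0.0112), a call lost without either parental replicate (0.0605 and 0.117). Fbxo32, an F-box protein of a ubiquitin ligase, rose by 1.85 ± 0.28 (adjusted p = 0.00342), from 2.98 and 2.58 to 12.2 and 8.09 CPM, a call lost in both limma fits. Fbxw7, the best known ligase adaptor for MYC, named after its values were seen, did not pass (0.38 ± 0.19, adjusted p = 0.150).

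Of 17 tested genes that act on transcription of Myc or on its messenger RNA, 4 rose, 6 fell and 7 did not pass. Calls were thus made for 58.8% of this list, against 41.1% of all genes tested (19.9% higher and 21.3% lower). Igf2bp1, which binds and protects Myc messenger RNA, rose by 2.37 ± 0.36 (edgeR adjusted p = 0.00348) from a low level, 0.630 and 0.825 against 3.66 and 3.93 CPM. Cnbp, a nucleic acid binding protein that acts at the Myc promoter, fell by 0.85 ± 0.12 (adjusted p = 0.00240), from 612 and 641 to 379 and 317 CPM. Ctnnb1, beta-catenin, rose by 0.42 ± 0.09 (adjusted p = 0.0114), yet was not called in the limma fits or without either parental replicate (0.211 and 0.112). Pvt1, the long non-coding RNA gene next to Myc, named after its values were seen, fell with it but less far, by 0.80 ± 0.14 (adjusted p = 0.00597), from 30.8 and 32.3 to 16.7 and 19.3 CPM.

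Fewer of all genes passed in the limma fits and with a library left out than in the main fit, with counts in the last section. A lower count in a list is therefore not by itself particular to that list. The counts of calls in most lists depended on the test. In the limma fits to FPKM they went from 9 to 2 (coactivators), 7 to 3 (corepressors), 5 to 1 (partners of MGA), 10 to 4 (stability), 10 to 2 (Myc transcription and messenger RNA), 33 to 31 (ribosome biogenesis), 33 to 23 (metabolic), 11 to 9 (cell cycle) and 12 to 8 (repressed genes). Without parental replicate 1 the calls were 5 for the stability list and 6 for Myc transcription, and without parental replicate 2 they were 4 for the corepressors, 3 for the partners of MGA, 7 for stability and 5 for Myc transcription.

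Genes whose pattern over the 4 libraries was most like that of Myc were ranked by the root mean square difference of log2 CPM, each gene centred on its mean, among 7720 named genes of at least 5 FPKM. The nearest was Pck2, the mitochondrial PEP carboxykinase, at 0.0419, with 318 and 279 CPM in parental and 53.7 and 63.9 CPM in BORG-expressing libraries. Klk10, a kallikrein-related peptidase, followed at 0.0590, Slc19a1, the reduced folate carrier, at 0.0591, Jdp2, a repressor of AP-1 sites, at 0.0678, and the linker histone gene Hist1h1b at 0.0751. Hist1h1b belongs to a family of near-identical genes and its counts are uncertain. With 4 libraries in 2 groups this likeness mostly restates a fall of similar size, and nothing is read from it about shared control.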

How the data were processed

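Total RNA libraries (stranded kit, per the labels' protocols) were made from 4 samples, described as biological duplicates of parental and BORG-expressing cells. FastQC, Trim Galore, TopHat and Cufflinks, and the builds GRCm38, mm10 and mm8, are named in the submitters' processing notes. Tool versions, annotation release and strand setting: not given in the sources used here. Per the file headers the authors deposited estimated counts of fragments, and FPKM, per gene and library. The 2 further columns of scaled fragments were not used. Empty, the table's other condition beside BORG, was taken as parental, and replicate indices 0 and 1 as replicates 1 and 2.

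Identifiers were matched to GENCODE M21 symbols without version (48051 of 48432). Estimated counts were rounded and put through edgeR 4.0.16 under R 4.3.3 with TMM factors, filterByExpr, a two-sided quasi-likelihood F test and Benjamini-Hochberg adjustment over 15116 genes, at a threshold of 0.05. SE is the size of the log2 fold change over the square root of F. Alternatives were other scaling factors, other filters, DESeq2 1.42.0, limma 3.58.1 on log2(FPKM + 1) or log2(FPKM + 0.1), a replicate block and each library left out. The code was tested on simulated data. Members and lists were chosen with earlier results of these data known. Named genes were all members, the MLX branch, the 5 genes most like Myc and, per list, the highest and lowest past the test and the 2 of highest FPKM; others are marked. Among the 47 members and named list genes, 10 share a strand with an overlapping gene and 19 overlap one on the opposite strand, so their values may include reads of the neighbour.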

Additional observations from a re-analysis of the deposited data

How the results depend on the processing

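Up to 14 alternative settings were run per result, the crossed block among them chosen after seeing the data. Of 124 values for the 9 tested members, 102 kept direction and side of the threshold, 21 lost the call, 1 gained it and 0 changed the direction of a call; Max and Mga account for 18 of the losses and Mxd1 for 3. For 41 other named genes 516 of 566 values kept their side, 47 lost and 3 gained the call. In limma on log2(FPKM + 1) and log2(FPKM + 0.1), 3189 and 3310 genes passed (6220 in edgeR), 4 members each (7 in edgeR) and 83 listed genes each (130 in edgeR). Leaving out 1 library gave 4743 to 5905 genes, 5 or 6 members, 107 to 127 listed genes and a log2 Myc to antagonist ratio from -3.61 to -3.31.

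The labels do not say that replicate numbers pair libraries. With the replicate block 4190 genes, 5 members and 103 listed genes passed; Max (adjusted p = 0.154) and Mga (0.116) did not. Same-numbered libraries deviated in opposite directions (r = -0.44 over genes), and with a crossed block 9319 genes, 8 members and 159 listed genes passed. No scaling alternative moved the median of all genes by over 0.1. The 3.84-fold range of depth limits genes of few fragments, such as Mxd3 and Mycn. The labels name no spike-in, so changes in total RNA per cell are not visible.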
